A study of Mus musculus with 4 samples.

Results

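Adipocytes store triglyceride in the mammary fat pad, the tissue in which mammary tumors grow, and 32 genes of their identity and fat storage were followed here. They encode hormones, lipid droplet coat proteins, transcription factors, proteins of lipolysis, proteins of fatty acid and glucose uptake, enzymes of triglyceride synthesis and other proteins abundant in fat. The members were all probe sets, groups of short oligonucleotide probes for a transcript, whose annotated symbol was exactly one of these genes. They came to 28 of the 32 genes, of 18193 genes on the array, and to 55 of 45037 probe sets. Cfd, Plin1, Adrb3 and Acsl1 had no probe set under their symbol in the annotation used and were not analysed here.

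Expression was measured on 4 one-colour Affymetrix mouse whole-genome arrays. St6gal1-/- mice, which are null for the enzyme that adds alpha2-6-linked sialic acid to N-glycans, gave 2 of the samples, and wild-type littermates gave the other 2. Each sample pooled 3 mammary tumors from 3 different animals, so the spread between animals within a pool is not seen. All mice of both groups were female C57BL/6 animals that carried the PyV-mT transgene (polyoma virus middle T antigen, an oncogene that drives mammary tumors), and were 110 days old and 14 days past tumor onset. Set 1 paired 1 null with 1 wild-type pool, and set 2 paired the other null with the other wild-type pool. The promoter of the transgene and the part of St6gal1 that the null allele lacks are not given in the sources used here.

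White adipocytes take up fatty acids that lipoprotein lipase frees from circulating lipoproteins, join them to a glycerol backbone and keep the triglyceride in a large droplet coated by perilipins and CIDE proteins. Hormone and adrenergic signals release it again through a chain of lipases. The nuclear receptor PPAR gamma and the factor C/EBP alpha switch on most of these genes when a fat cell forms. Mammary epithelium also makes lipid droplets for milk, and macrophages, muscle and endothelium use several of the same uptake proteins, so few of these genes are made by fat cells alone.

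The 4 arrays had median intensities of 588.2 and 591.2 in the null pools and 618.7 and 592.6 in the wild-type pools (sets 1 and 2 in that order, as throughout). The ratio of 3' to 5' signal of Gapdh, which rises with RNA degradation or incomplete labelling, was 0.873 and 2.13 in the null pools and 0.869 and 1.57 in the wild-type pools. The brighter St6gal1 probe set read 2337 and 3642 in the null pools and 2330 and 2796 in the wild-type pools. The null pools thus had no lower signal than their partners. Whether the probes lie in the deleted part is not known, so which pools are null is taken from their labels alone. The highest reading of 15 probe sets for Y-linked genes, which female mice lack, was 585 and is called the unspecific level. Differences are log2 ratios of null over wild type from limma, fitted with genotype and set on log2(intensity + 44). The p-values were adjusted by Benjamini and Hochberg's method across the 22519 probe sets in the test, and 0.05 was the threshold. The constant of 44 makes folds of dim probe sets too small. With 2 arrays against 2, an exact two-sided permutation test cannot give a p below 0.333, so every call rests on the model's pooled spread.

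Some of the fat storage genes were higher in the tumors of null mice and none passed as lower. By role, 2 of 2 hormone genes tested rose, 1 of 3 droplet coat genes, 3 of 5 uptake and carrier genes, 3 of 5 triglyceride synthesis genes and 1 of 3 other fat-enriched genes, as did 0 of 4 lipolysis genes and 0 of 1 transcription factor. Differences between the roles were not tested. On the brightest probe set of each gene, 10 of 23 members tested rose in the null pools and 0 fell by limma (1 member was lower at an unadjusted p under 0.05), where 5.18% of all 11514 genes tested rose and 3.59% fell. Over probe sets, 13 of 33 members tested rose and 0 fell (1 was lower at an unadjusted p under 0.05), against 4.05% and 3.25% of all tested. They were Adipoq, Retn, Plin4, Lpl, Cd36, Fabp4, Pck1, Dgat1, Dgat2 and Car3. The median log2 ratio over the 23 genes was 0.48, against -0.01 over all genes tested, with a range from -0.32 to 1.62. That median was 0.30 without the wild-type array of set 1 and 0.73 without that of set 2 (both with no set term), and 0.28 with a stricter filter on dim probe sets. Both null pools read above both wild-type pools for 13 of the 23 genes and below them for 2, which 17.7% and 17.0% of all genes tested did. A ratio of at least 2-fold in both sets was reached by 8 of the 23, and by 1.18% of all genes tested. In bulk tumor tissue, more cells of a type and more RNA per cell cannot be told apart.

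The calls depended on the form of the model. With genotype as its only term limma called 0 of these 13 member probe sets, of which 12 had an unadjusted p under 0.05, and without the intensity trend it called 0, of which 13 did. All 13 kept a positive log2 ratio in both of these fits. The 5 members that were not tested, Lep, Pparg, Aqp7, Acvr1c and Ucp1, had a mean below the median probe set on their brightest probe set. Of the 23 that were, Cidec and Pck1 had a wild-type mean below that filter and passed it through the null pools. The values of Cidec and Pck1 are thus no support for the counts or the median of the members. The dimmer tested probe set of Cd36 also passed the filter only through the null pools.

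**Figure D1:**
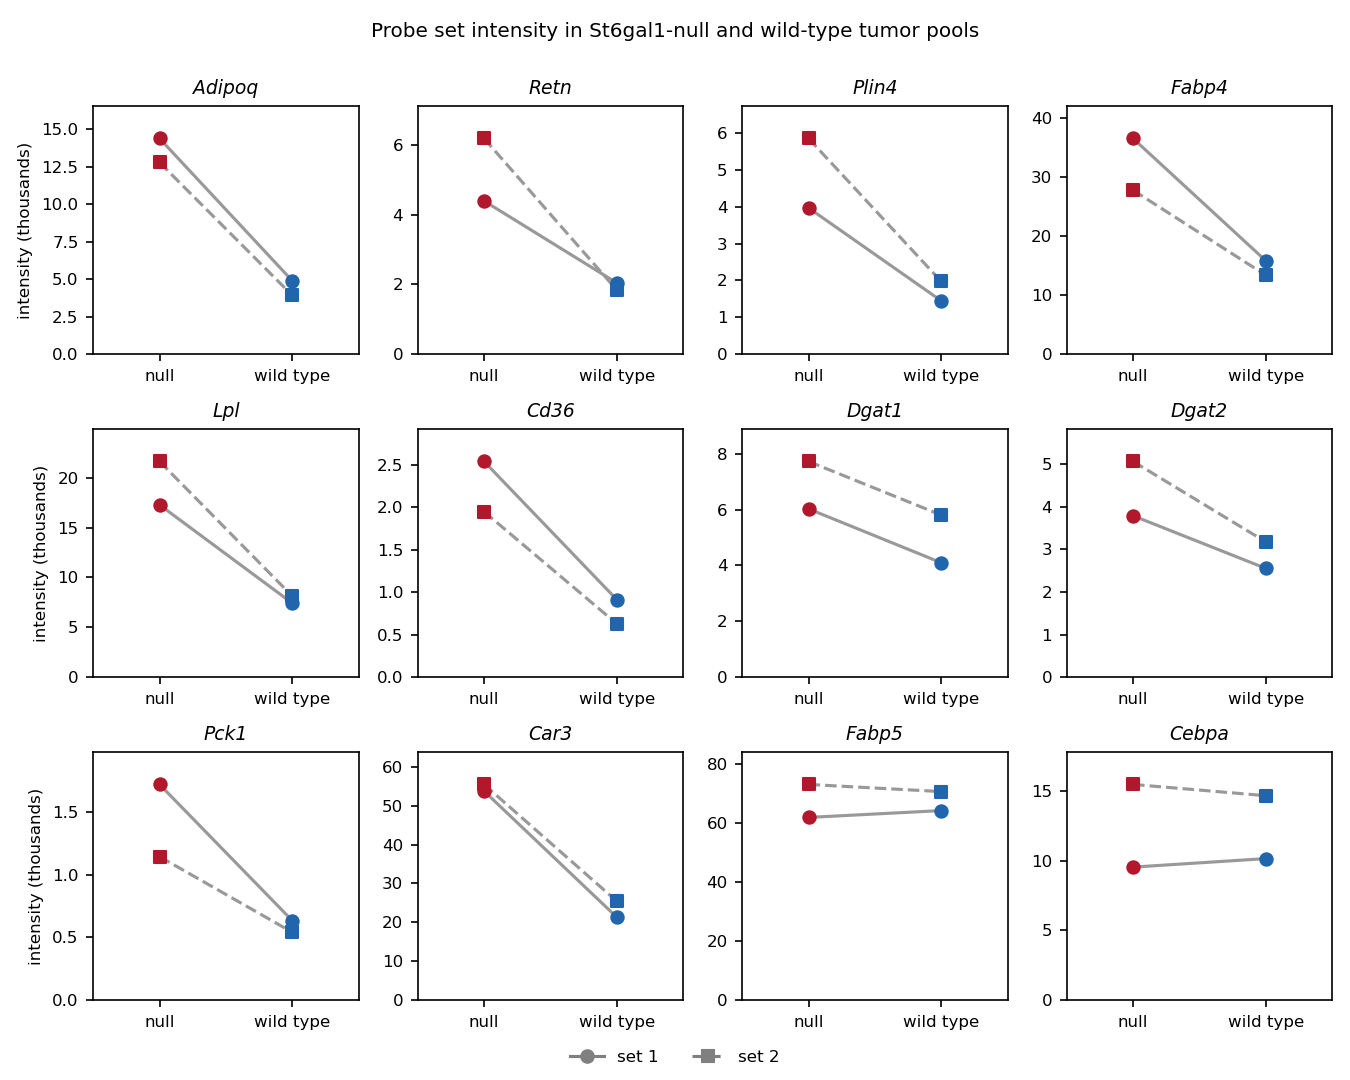
Intensity (linear axis from 0) in the null pools (red, left) and wild-type pools (blue, right) for the brightest probe set of 12 genes, with circles and solid lines for set 1 and squares and dashed lines for set 2. The 10 genes that passed the threshold slope down to the wild-type pools in both sets, whereas Fabp5 and Cebpa run nearly level and differ mainly between the sets.

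RefSeq promoter windows (build GRCm38.p6, 250 bases before to 50 after the transcript start, on the gene's strand) were at hand for 21 of the 32 members, among them 5 of the 10 that rose. Those 5 are printed because they belong to the genes that carry the difference. They lie at chr16:23146286-23146585 (+ strand) for Adipoq, chr8:3655520-3655819 (+ strand) for Retn, chr17:56109733-56110032 (- strand) for Plin4, chr5:17835847-17836146 (- strand) for Cd36 and chr2:173152823-173153122 (+ strand) for Pck1. Capitals mark matches to the motifs described after them.
Adipoq: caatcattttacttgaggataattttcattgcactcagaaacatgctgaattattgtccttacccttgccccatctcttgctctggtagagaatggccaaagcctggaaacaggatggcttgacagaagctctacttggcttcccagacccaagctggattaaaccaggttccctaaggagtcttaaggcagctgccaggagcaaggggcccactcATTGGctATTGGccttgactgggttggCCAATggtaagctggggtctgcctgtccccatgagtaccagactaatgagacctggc
Retn: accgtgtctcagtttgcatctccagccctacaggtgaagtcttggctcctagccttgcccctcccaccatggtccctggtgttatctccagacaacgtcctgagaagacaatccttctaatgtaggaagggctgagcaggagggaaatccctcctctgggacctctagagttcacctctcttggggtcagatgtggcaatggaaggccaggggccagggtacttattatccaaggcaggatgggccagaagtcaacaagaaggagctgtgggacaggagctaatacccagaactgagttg
Plin4: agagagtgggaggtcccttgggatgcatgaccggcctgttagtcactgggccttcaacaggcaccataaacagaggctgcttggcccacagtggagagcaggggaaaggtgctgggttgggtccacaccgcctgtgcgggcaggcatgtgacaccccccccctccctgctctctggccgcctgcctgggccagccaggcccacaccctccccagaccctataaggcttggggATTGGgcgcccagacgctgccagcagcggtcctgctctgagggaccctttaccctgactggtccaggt
Cd36: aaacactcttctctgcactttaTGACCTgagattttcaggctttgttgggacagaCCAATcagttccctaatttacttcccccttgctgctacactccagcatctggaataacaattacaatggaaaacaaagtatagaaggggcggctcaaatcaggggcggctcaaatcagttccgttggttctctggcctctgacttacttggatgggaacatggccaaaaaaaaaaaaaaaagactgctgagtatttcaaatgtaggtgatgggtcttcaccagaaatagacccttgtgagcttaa
Pck1: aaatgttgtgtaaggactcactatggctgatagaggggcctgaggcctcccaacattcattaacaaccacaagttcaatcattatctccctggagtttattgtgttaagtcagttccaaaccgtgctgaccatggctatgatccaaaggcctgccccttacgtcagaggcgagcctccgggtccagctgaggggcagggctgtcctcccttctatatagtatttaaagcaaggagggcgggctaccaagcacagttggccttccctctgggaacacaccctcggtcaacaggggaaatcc

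The motifs searched, on both strands, were the TATA box TATAAA, the CCAAT box CCAAT, TTNNGCAA for C/EBP factors, the nuclear receptor half-site AGGTCA, and the direct repeat of such half-sites with 1 base between them, which PPAR gamma is known to bind and which can hold the half-site. Of the 29 windows of the 21 members, 7 held CCAAT, 7 AGGTCA, 4 TTNNGCAA, 2 TATAAA and 0 the direct repeat. Of all 32851 windows 37.4% held CCAAT, 16.3% AGGTCA, 10.8% TTNNGCAA, 13.6% TATAAA and 0.381% the direct repeat. Adipoq held 3 CCAAT boxes within the 34 bases before its start, Plin4 held 1, and Cd36 held 1 together with an AGGTCA half-site. Retn and Pck1 held none of these letters in the window. These matches describe the letters only.

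Of the fat hormones, the 2 that could be tested rose. Adipoq, which encodes adiponectin, the insulin-sensitising hormone made by fat cells, read 14379 and 12777 in the null pools, against 4890 and 3917 in the wild-type pools. The groups lay far apart in both sets, and the ratio came to 3.08-fold, or 1.62 ± 0.10 on the log2 scale (SE, n = 2 of each genotype, as for all SE below) (limma adjusted p = 1.85e-07). Retn, which encodes resistin, a hormone secreted by mouse fat cells, read 4403 and 6201 in the null pools, against 2047 and 1844 in the wild-type pools. It rose 2.65-fold (log2 1.41 ± 0.16, adjusted p = 6.46e-05), with a log2 ratio of 1.09 in set 1 and 1.73 in set 2. Lep, which encodes the satiety hormone leptin, read 389 and 375 in the null pools and 24.2 and 294 in the wild-type pools, all within the unspecific level, so no difference can be read from it.

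Among the droplet coat genes Plin4 rose and the CIDE genes did not pass. Plin4, a perilipin of fat cells and muscle, read 3969 and 5856 in the null pools, against 1446 and 1973 in the wild-type pools. Its ratio was 2.81-fold (log2 1.49 ± 0.15, adjusted p = 1.56e-05), and the 2 sets gave nearly the same value (log2 1.43 and 1.55). Cidec, which fuses droplets into the single large one of white fat, read 1257 and 790 in the null pools and 453.5 and 621 in the wild-type pools. The groups did not overlap, but the sets differed, with log2 ratios of 1.39 and 0.33, and the gene did not pass (log2 0.86 ± 0.35, adjusted p = 0.176). Cidea, the CIDE protein of brown fat and lactating mammary gland, read 999 and 1139 in the null pools and 507 and 1006 in the wild-type pools. Its groups overlapped between the sets (log2 0.55 ± 0.30, adjusted p = 0.343).

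Neither transcription factor gave a call. Cebpa, which encodes C/EBP alpha, read 9529 and 15455 in the null pools and 10139 and 14649 in the wild-type pools, for a log2 ratio of -0.01 ± 0.09 (adjusted p = 0.982). The pools fell by set, not by genotype. Pparg, which encodes PPAR gamma, read 476 and 860 in the null pools and 389 and 497 in the wild-type pools, and only the null pool of set 2 exceeded the unspecific level. It lay below the filter, and with no filter its log2 ratio was 0.50 (adjusted p = 0.723).

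Genes of fatty acid uptake and carriage held 3 of the 10 calls. Lpl, the lipase that frees fatty acids from lipoproteins at the vessel wall, read 17298 and 21659 in the null pools, against 7425 and 8135 in the wild-type pools. It rose 2.48-fold (log2 1.31 ± 0.09, adjusted p = 6.23e-07), and its dimmer tested probe set rose 2.39-fold, so the probe sets of Lpl gave like values. Cd36, a fatty acid receptor of fat cells, macrophages and endothelium, read 2542 and 1950 in the null pools, against 914 and 629 in the wild-type pools. It rose 2.83-fold (log2 SE 0.23, adjusted p = 7.45e-04), while its second tested probe set had a log2 ratio of 1.11 ± 0.32 and just missed the threshold (adjusted p = 0.0518). That second probe set read 1900 and 616 in the null pools and 910 and 244 in the wild-type pools, so its groups overlapped between the sets although each set showed the same direction. Its wild-type mean was below the filter. It was tested only through the null pools, so it is no support for a rise of Cd36.

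Of the fatty acid binding proteins Fabp4 rose and Fabp5 did not pass. Fabp4, the carrier abundant in fat cells, read 36602 and 27813 in the null pools, against 15850 and 13390 in the wild-type pools. It rose 2.19-fold on that probe set (log2 1.13 ± 0.09, adjusted p = 1.35e-06) and by a smaller factor, 1.67-fold, on its dimmer tested probe set (log2 0.74 ± 0.09, adjusted p = 1.01e-04). Fabp5, the carrier also known from epithelium and macrophages, read 61962 and 73160 in the null pools and 64290 and 70732 in the wild-type pools. Its groups overlapped, and the log2 ratio was -0.002 ± 0.09 (adjusted p = 0.993), with -0.01 ± 0.09 on its second probe set. The difference between Fabp4 and Fabp5 was not itself tested. Slc2a4, which encodes the insulin-responsive glucose transporter GLUT4 of fat and muscle, read 2502 and 2183 in the null pools and 2163 and 2228 in the wild-type pools (log2 0.09 ± 0.17, adjusted p = 0.827), so its pools also overlapped.

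In triglyceride synthesis 3 of 5 genes tested rose, where 5.18% of all genes tested did. Of these 3, Pck1 was tested only through the null pools, where it is high, so it is no support for the count. Dgat1 and Dgat2 encode the enzymes that add the final fatty acid. Dgat1 read 6030 and 7731 in the null pools, against 4100 and 5809 in the wild-type pools, and rose by 0.48 ± 0.11 on the log2 scale (adjusted p = 0.0142). Its probe set has the suffix _s_at, with which the manufacturer marks probes shared by several transcripts, so the gene is uncertain. Dgat2 read 3794 and 5071 in the null pools, against 2556 and 3180 in the wild-type pools, and rose 1.53-fold (log2 0.61 ± 0.13, adjusted p = 0.0101). Its second probe set had nearly the same log2 ratio, 0.60 ± 0.24, but did not pass (adjusted p = 0.154), and the ratio there came mostly from set 1 (1.07 against 0.14 in set 2). Pck1, whose enzyme supplies glycerol in fat cells through glyceroneogenesis, read 1718 and 1143 in the null pools, against 633 and 540 in the wild-type pools. It rose 2.30-fold (log2 1.20 ± 0.28, adjusted p = 0.0186), a fold that rests in part on a wild-type reading within the unspecific level.

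The other triglyceride synthesis genes did not pass. Gpd1, which makes glycerol 3-phosphate from a glycolytic intermediate, read 4608 and 5408 in the null pools and 3675 and 4758 in the wild-type pools (log2 0.25 ± 0.12, adjusted p = 0.245). Its dimmer probe sets disagreed, with log2 ratios of 0.64 ± 0.21 and -0.18 ± 0.27. Agpat2, which adds the second fatty acid and whose loss in humans causes lipodystrophy, read 5432 and 6990 in the null pools and 7643 and 7747 in the wild-type pools. Both null pools lay below both wild-type pools, and the log2 ratio of -0.32 ± 0.11 did not pass (adjusted p = 0.109), which made Agpat2 the lowest of the 23 genes.

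Lipolysis genes held none of the calls: 0 of 4 tested passed by limma (1 was higher and 0 were lower at an unadjusted p under 0.05). With 5.18% of all genes tested called higher and 3.59% called lower, a count of 0 among 4 does not set these genes apart. Pnpla2, the lipase ATGL that starts triglyceride breakdown, read 10416 and 16084 in the null pools and 10426 and 16467 in the wild-type pools. These readings matched within each set and differed between the sets, and the log2 ratio was -0.02 ± 0.09 (adjusted p = 0.945). G0s2, the inhibitor of ATGL, read 22139 and 24223 in the null pools and 19036 and 21246 in the wild-type pools. Its groups did not overlap, but the log2 ratio was only 0.20 ± 0.08 (adjusted p = 0.177). Lipe, hormone-sensitive lipase, read 2041 and 1417 in the null pools and 1656 and 1139 in the wild-type pools (log2 0.30 ± 0.21, adjusted p = 0.464). Mgll, which completes the breakdown to glycerol, read 10034 and 11191 in the null pools and 11726 and 12390 in the wild-type pools (log2 -0.18 ± 0.09, adjusted p = 0.270). Both null pools were below both wild-type pools for Mgll, though its probe sets reached from -0.23 to 0.01. The brightest Mgll probe set also has the suffix _s_at. Aqp7, the channel through which glycerol leaves the fat cell, read at most 203 on any array and was within the unspecific level.

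**Figure D2:**
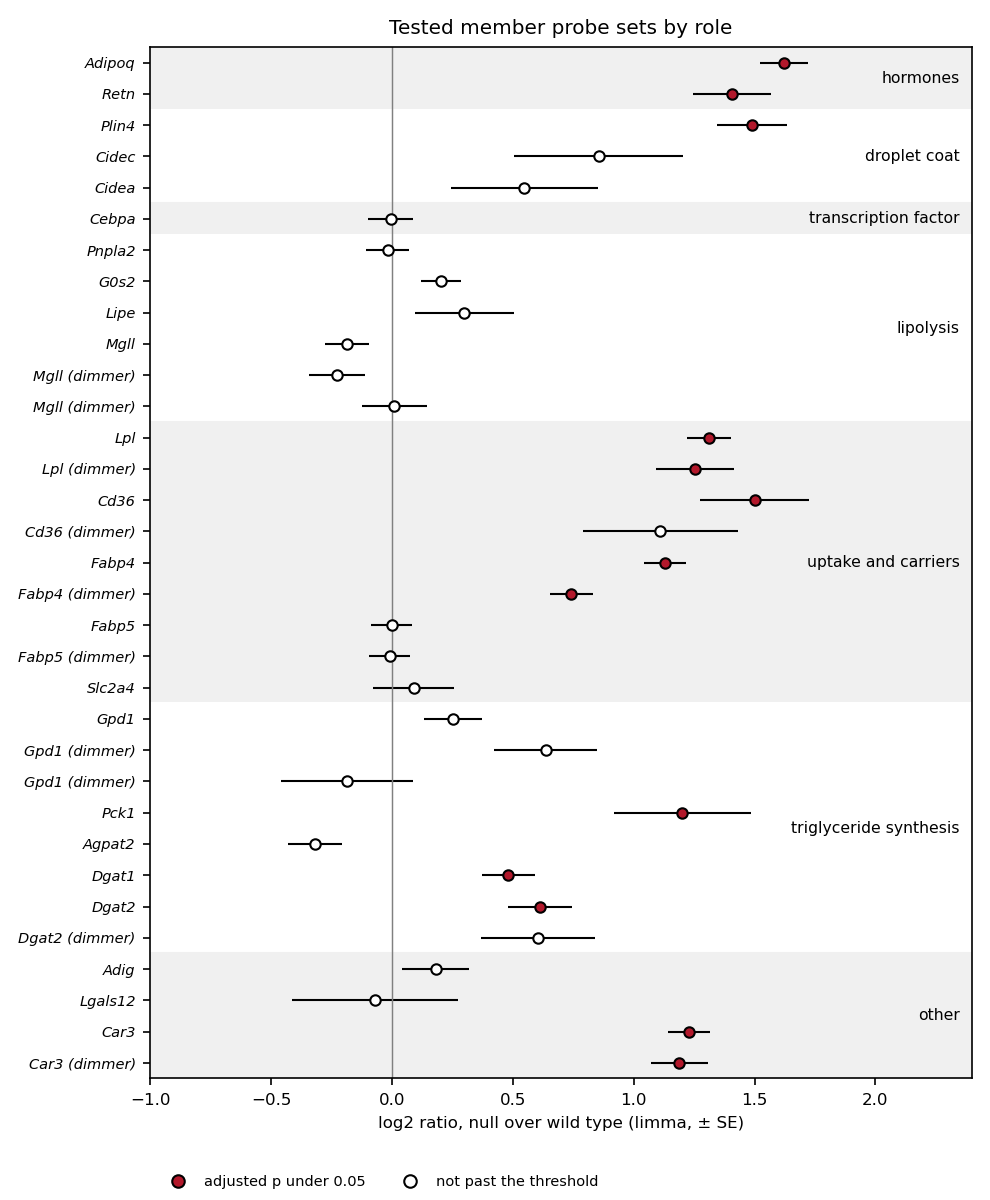
Log2 ratio of null over wild type with its limma standard error for the 33 tested member probe sets, grouped by role from hormones (top) to other fat-enriched genes (bottom), filled red where the adjusted p was under 0.05. The 13 filled points lie between 0.48 and 1.62, and all points of the lipolysis group lie between -0.23 and 0.30.

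Of the remaining members Car3 rose. Car3, a carbonic anhydrase abundant in white fat and also in muscle, read 53775 and 55482 in the null pools, against 21339 and 25451 in the wild-type pools. It rose 2.34-fold (log2 1.23 ± 0.09, adjusted p = 6.23e-07), and its second tested probe set 2.28-fold. Adig, which encodes adipogenin, a small membrane protein of fat cells, read 3462 and 3511 in the null pools and 3346 and 2821 in the wild-type pools. Its groups were close but did not overlap (log2 0.18 ± 0.14, adjusted p = 0.528). Lgals12, a galectin of lipid droplets, read 569 and 705 in the null pools and 622 and 714 in the wild-type pools (log2 -0.07 ± 0.34, adjusted p = 0.945), close to the unspecific level on every array.

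Ucp1, the uncoupling protein that marks brown and beige fat cells, was not tested but separated the genotypes. It read 603 and 860 in the null pools, just above the unspecific level, against 31.2 and 24.7 in the wild-type pools, far within it. Against that level the null pools were at least 1.22-fold higher. With no filter on dim probe sets limma called it (adjusted p = 0.0112), the one member that this setting added. Acvr1c, the activin-like receptor ALK7 of fat cells, exceeded the unspecific level on its brightest probe set only in the wild-type pool of set 2, at 588, and its dimmer probe sets read within that level on every array, so no direction can be read from them. Of all 55 member probe sets, 16 read within the unspecific level on every array.

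Brown fat genes were listed apart because Cidea and Ucp1 are known from that tissue. Among all genes tested 5.18% rose and 3.59% fell. Of 15 brown fat genes with a probe set, 9 read within the unspecific level on all arrays, and 5 were tested. By limma 3 of the 5 rose and 0 fell (0 were lower at an unadjusted p under 0.05). Of these 3, Dio2 and Prdm16 had a wild-type mean below the filter and were tested only through the null pools where they are high, so their count is no support for a rise of the list. Dio2, which activates thyroid hormone, was at least 3.50-fold higher, at 1950 and 2385 in the null pools and 355 and 366 in the wild-type pools. Cox8b, a cytochrome oxidase subunit of brown fat and striated muscle, rose 1.83-fold. It read 4060 and 1767 in the null pools, against 1661 and 1264 in the wild-type pools. The ratio came mostly from set 1 (log2 1.27, against 0.47 in set 2). Prdm16, a brown fat regulator, rose by 1.10 ± 0.31 on the log2 scale on its brightest probe set (adjusted p = 0.0465), while its second tested probe set had 0.06 ± 0.38. Cox7a1 had -0.13 ± 0.18, and Elovl3, Zic1, Ppargc1a and Tmem26 did not exceed the unspecific level on any array.

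The log2 ratios of the members were set side by side between the 2 sets of pools. Of the 23 genes, 16 were higher in the null pool in both sets, which 31.8% of all genes tested were. The median was 0.55 in set 1 and 0.31 in set 2, against -0.01 and -0.002 over all genes tested. The difference between the sets has no test, since 1 pool per genotype and set leaves no spread to judge it by. The largest gaps between sets among tested genes were those of Cidec (1.39 and 0.33), Cidea (0.92 and 0.17) and Retn (1.09 and 1.73), and the other 9 genes that rose kept within 0.36 of each other.

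**Figure D3:**
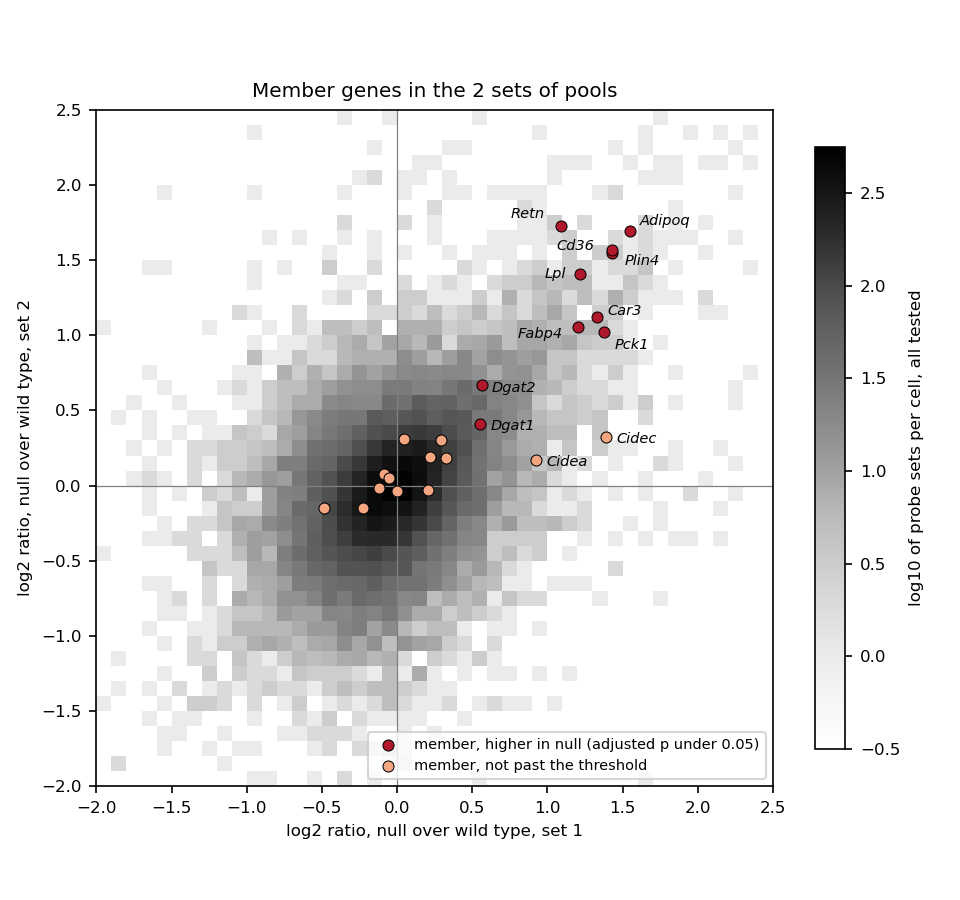
Log2 ratio of null over wild type in set 1 (horizontal) and set 2 (vertical) for the 23 tested member genes, over the density of all tested probe sets in grey (probe sets beyond the axes are not drawn). The 10 red genes lie in the upper right, 8 of them at 1 or more on both axes, while Cidec and Cidea lie to the right near the horizontal axis.

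A few members differed between the sets, in counts close to the shares of all genes tested, so these counts do not single the members out. Of the 23 genes, 4 were higher and 1 was lower in set 2 than in set 1 by the same fit, where 14.6% and 8.55% of all genes tested were. Pnpla2, Cebpa, Plin4 and Dgat1 were higher in set 2, by 0.64, 0.61, 0.50 and 0.43 on the log2 scale (adjusted p = 1.65e-04, 3.35e-04, 0.0245 and 0.0116), and Fabp4 fell by 0.32 (adjusted p = 0.0154). Of the dimmer probe sets, 5 fell in set 2, where 12.5% of all probe sets tested did: those of Cd36 by 1.64, Car3 by 0.74, Mgll by 0.68, Fabp4 by 0.57 and Fabp5 by 0.26. The 3' to 5' ratio of Gapdh was 2.13 and 1.57 in set 2 and 0.873 and 0.869 in set 1, and its part in these shifts was not tested.

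Fat genes outside the member list were counted by role on the brightest probe set of each gene, and dimmer probe sets that passed are given beside the counts. By that count 5.18% of all genes tested rose and 3.59% fell. Of 12 other secreted fat factors tested, 6 rose and 0 fell by limma (0 were lower at an unadjusted p under 0.05), with a median log2 ratio of 0.65. They were Rarres2 (chemerin), C1qtnf3, Retnla, Rbp4 (the retinol carrier), Angptl4, an inhibitor of lipoprotein lipase, and Cxcl14. Rarres2 read 3512 and 3555 in the null pools, against 457 and 893 in the wild-type pools, a 5.22-fold rise that rests in part on 1 wild-type reading within the unspecific level. Its dimmer tested probe set rose by 2.23 on the log2 scale, at 2608 and 2402 in the null pools and 276 and 876 in the wild-type pools. The wild-type mean of that dimmer probe set was below the filter. It was tested only through the null pools, so it is no support for the rise. Both Rarres2 probe sets and that of Angptl4 have the suffix _s_at, so these genes are uncertain. C1qtnf3 read 3811 and 3731 in the null pools, against 1280 and 1413 in the wild-type pools, a 2.75-fold rise. Retnla, a relative of resistin that macrophages also make, read 31024 and 40379 in the null pools, against 12624 and 17262 in the wild-type pools, a 2.39-fold rise. Rbp4, Angptl4 and Cxcl14 rose by 1.21, 0.69 and 0.61 on the log2 scale. Cxcl14 read 7618 and 16385 in the null pools and 5200 and 10297 in the wild-type pools, so its groups overlapped between the sets. The second tested probe set of Cxcl14 had 0.31 ± 0.10 and did not pass (adjusted p = 0.0979). Nnat, which encodes neuronatin, read 1091 and 1251 in the null pools and 376 and 741 in the wild-type pools and did not pass (log2 1.08 ± 0.32, adjusted p = 0.0575). Its wild-type mean was below the filter. Nnat was thus tested only through the null pools, so its value is no support for the median of these factors.

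Of 16 other droplet and lipolysis genes tested, 3 rose and 3 fell, where 5.18% of all genes tested rose and 3.59% fell. The median was 0.05. Pnpla3, a lipase relative on droplets of fat and liver, rose 3.25-fold, Ces1d, a carboxylesterase of fat cells, rose 2.07-fold, and Prkar2b, a protein kinase A subunit abundant in fat, rose 1.64-fold. Plin2 and Plin3, perilipins found on droplets of most cell types, fell by 0.33 and 0.57 on the log2 scale (adjusted p = 0.0258 and 0.00137), while Plin4 rose by 1.49. Lipa, the lysosomal acid lipase, fell by 0.42. The brightest probe sets of Prkar2b and Lipa have the suffix _s_at, and dimmer ones without it rose by 0.79 for Prkar2b and fell by 0.45 and 0.74 for Lipa. Another dimmer probe set of Prkar2b without the suffix had 0.335 ± 0.103 and did not pass (adjusted p = 0.067). Ces1d also rose on a dimmer probe set, by 0.85. Hsd17b11, a droplet-associated dehydrogenase, differed between its probe sets. The dimmer one read 4396 and 3930 in the null pools, against 1285 and 845 in the wild-type pools, and rose by 1.95 (adjusted p = 9.03e-06), more than any brightest probe set of this list. The brightest one had 0.08 ± 0.09 (adjusted p = 0.661), so Hsd17b11 is counted among those that did not pass. Of 20 other uptake and triglyceride genes tested, 0 rose by limma (4 were higher at an unadjusted p under 0.05) and 1 fell, Acsl4, by 0.36 (and by 1.36 on a dimmer probe set with the suffix _s_at), with a median of 0.03. Gpihbp1, which anchors lipoprotein lipase to capillary endothelium, read 2582 and 3403 in the null pools and 1793 and 2510 in the wild-type pools (log2 0.47 ± 0.16, adjusted p = 0.0877).

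Of 15 genes of fatty acid synthesis tested, 6 rose and 0 fell by limma (3 were lower at an unadjusted p under 0.05), with a median of 0.21. Among all genes tested 5.18% rose and 3.59% fell. Me1 and Pcx, which supply reducing power and oxaloacetate to the pathway, rose 1.58-fold and 1.55-fold, and Elovl6, Acaca, Fasn and Scd1 rose between 1.37-fold and 1.57-fold. The dimmer tested probe sets of Elovl6 disagreed, with log2 ratios of 0.27 ± 0.18 and -0.88 ± 0.47, and did not pass (adjusted p = 0.448 and 0.319). Among the dimmer probe sets those of Acly, Scd1 and Me1 rose, by 0.37, 0.42 and 0.41 on the log2 scale. One of Scd2, another stearoyl-CoA desaturase, fell by 0.59 (adjusted p = 0.0499), at 3058 and 1096 in the null pools and 4199 and 1837 in the wild-type pools, while the brightest Scd2 probe set had 0.001 ± 0.09. Thrsp, a lipogenic nuclear protein, had -0.28 ± 0.09 and did not pass (adjusted p = 0.0658). Of 21 adipogenic regulators tested, 2 rose and 1 fell by limma, with a median of -0.05. At an unadjusted p under 0.05, 2 were higher and 7 were lower. With 3.59% of all genes tested called lower, a count of 1 among 21 does not set the list apart. Ebf1, which acts upstream of Pparg and is also a B cell factor, was at least 2.00-fold higher. The second tested probe set of Ebf1 had 0.54 ± 0.38 and did not pass (adjusted p = 0.481). Prdm16 was given with the brown fat genes. Rxra, the partner receptor of PPAR gamma, fell by 0.37 (adjusted p = 0.0447, with 0.08 ± 0.22 on its second probe set). Ebf1 and Prdm16, the only 2 that rose, had wild-type means below the filter and were tested only through the null pools, so their count is no support for a rise of the list. A dimmer probe set of Med1, a coactivator subunit of nuclear receptors, fell by 1.12 (adjusted p = 0.00380), at 1556 and 781 in the null pools and 2851 and 2120 in the wild-type pools. The brightest Med1 probe set had -0.27 ± 0.09 (adjusted p = 0.107).

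Markers of other cell types moved in the same samples, counted on the brightest probe sets. By the same count 5.18% of all genes tested rose and 3.59% fell. Of 13 fibroblast markers tested, 12 rose (Col1a1, Col1a2, Col3a1, Dcn, Lum, Pdgfra, Pdgfrb, Fap, Dpt, Thy1, Postn and Pi16), with a median of 1.11, and their summed intensity was 415388 and 480643 in the null pools and 200782 and 219127 in the wild-type pools. Of 12 skeletal muscle markers 3 rose, with a median of 0.79 and summed intensities of 20727 and 19764 in the null pools and 15610 and 14077 in the wild-type pools, where Pygm was within the unspecific level on every array. The 3 were Ckm (at least 1.85-fold), Tnni2 and Tnnc2, while the second tested probe set of Tnni2 had -0.01 ± 0.35 (adjusted p = 0.99). Of the 12, 6 had a wild-type mean below the filter and were tested only through the null pools, Ckm and Tnni2 among them, so neither the count nor the median is support for a rise of the list. Plin4, Car3, Lpl and Slc2a4 are known from muscle as well. Of 11 endothelial markers 4 rose, Vwf, Esam, Aqp1 and Eng (median 0.47, sums 27068 and 28938 in the null pools and 17995 and 20042 in the wild-type pools), and of 9 macrophage markers 3 rose, Mrc1, Cd163 and C1qb (median 0.15, sums 179268 and 197536 in the null pools and 161548 and 183977 in the wild-type pools). Of 12 luminal markers 3 rose, Krt19, Cldn4 and Pgr (median 0.07, sums 562346 and 598287 in the null pools and 547317 and 527635 in the wild-type pools). At an unadjusted p under 0.05 by limma, 6 luminal markers were higher and 3 were lower. Of 10 basal markers 5 fell, Krt5, Mylk, Myh11, Oxtr and Lamb3 (median -0.48, sums 118585 and 137982 in the null pools and 154424 and 169700 in the wild-type pools). No marker was at 0 on any array, and 3 of the 12 macrophage markers were within the unspecific level on every array. A dimmer probe set of Elf5, a luminal transcription factor, fell by 1.96 (adjusted p = 3.41e-07), at 3159 and 1940 in the null pools and 10608 and 8989 in the wild-type pools, while its brightest probe set had -0.12 ± 0.08 (adjusted p = 0.471). For Krt8, also a luminal marker, a dimmer probe set rose by 0.33 (adjusted p = 0.0456). The brightest Krt8 probe set had 0.30 ± 0.09 and did not pass (adjusted p = 0.0767). The summed intensity of the 28 members was 281234 and 310569 in the null pools and 197869 and 222991 in the wild-type pools. The part of other cell types in the members' values was not tested.

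**Figure D4:**
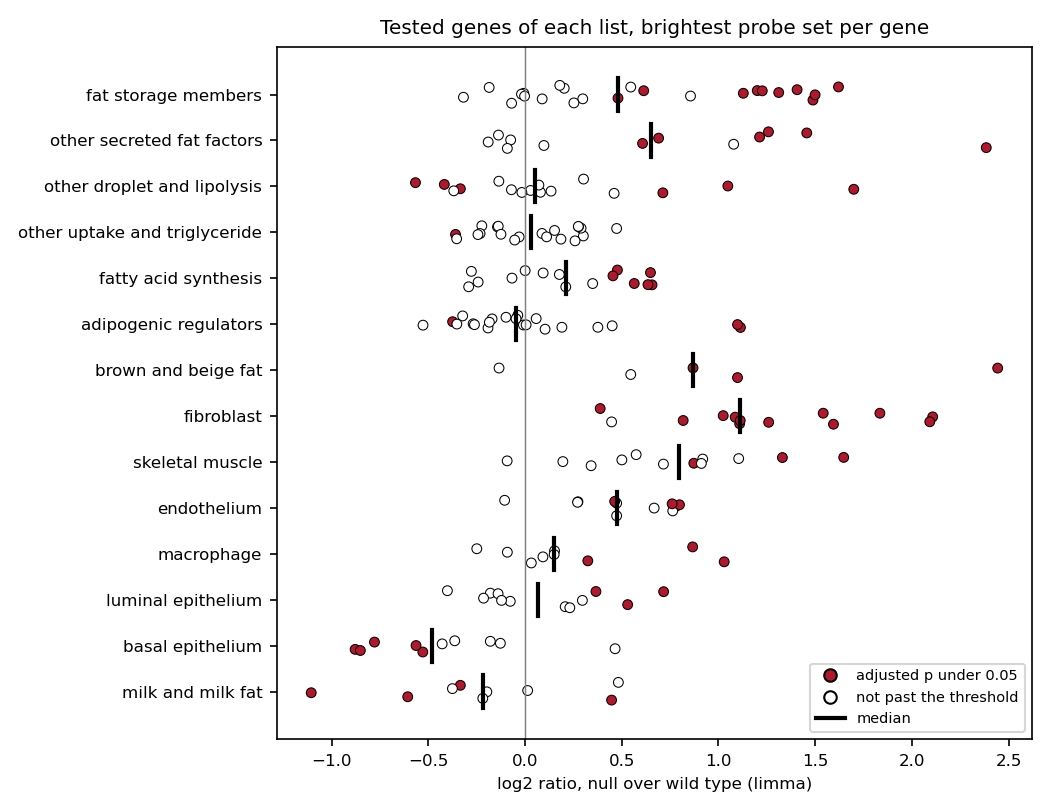
Log2 ratio of null over wild type for each tested gene (points, brightest probe set) of the 23 fat storage members, of other fat gene lists and of markers of other cell types, filled red where the adjusted p was under 0.05, with the list's median as a bar. Members spread from -0.32 to 1.62, fibroblast markers all lie above 0, and basal epithelial markers mostly lie below 0.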

How the data were processed

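Per the labels' protocols, total RNA was extracted from 100 mg of tumor tissue and 6 ug was labelled for the arrays. Per the submitters' processing notes the deposited intensities come from MAS5 (no version is stated). All 4 arrays had a mean of 2500.01 after trimming 2% at each end. Of 45101 probe sets, 64 controls were left out. The annotation gave 1 symbol for 34945 of the rest, several for 932 and none for 9160. Probe sets with a mean intensity at or above the median (22519) were tested with limma 3.58.1 in R 4.3.3 on log2(intensity + 44), where 44 is the 10th percentile. Set was a block because the design text pairs the pools by set. As a check, the 2 pools of a set deviated together from their genotype's mean (correlation 0.605, by construction equal for the sets). The fit left 1 residual degree of freedom. The script was tested on simulated data. Nothing says how tumors were assigned to pools, and the number of arrays limits the precision.

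Genes were named by this rule: all members, St6gal1, and from each other list genes past the threshold and up to 4 whose change was largest and of equal sign in sets 1 and 2, each on its brightest probe set. Those named beyond it were chosen after their values were seen. Where a genotype read within the unspecific level on both of its arrays, the fold is a bound against that level. The members and lists were chosen with earlier results of these data known. Further settings tried were no set term, no intensity trend, each array left out, each set alone, another constant or filter, and normalization by quantiles or by cyclic loess.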

Additional observations from a re-analysis of the deposited data

How the results depend on the processing

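With quantile or cyclic loess normalization, another pseudocount or no filter, all 13 member probe sets that rose were called again, and with the largest pseudocount or no filter 14 member probe sets passed. With the stricter filter 11 were called, since those of Cd36 and Pck1 were no longer tested, and the median over members was 0.28 (0.31 in set 1). Without the set as a block limma called 0 probe sets higher and 0 lower over all tested (1280 at an unadjusted p under 0.05), against 913 and 732 with it, and 0 members. Without the intensity trend it also called 0 and 0 (3486 at an unadjusted p under 0.05), 0 members, and 0 members higher and 0 lower in set 2. Leaving out 1 array as well as the set term, since with that term no residual degree of freedom is left, gave 10 probe sets higher and 9 lower without the null array of set 1, 1 and 3 without that of set 2, 22 and 5 without the wild-type array of set 1, and 6 and 2 without that of set 2. It gave between 0 and 1 member probe sets called higher (Adipoq, without the wild-type array of set 1), and a median over members between 0.30 and 0.73. The lone array of a genotype is then assumed to vary like the others. No member probe set that was called changed its direction in any of these settings. Of the other lists' calls, 4 turned with 1 array and the set term left out, which sets unequal sets against each other. They were Lalba (-0.075 without the null array of set 2 and -0.17 without the wild-type array of set 1), and dimmer probe sets of Lipa (0.24 without the null array of set 1 and 0.19 without the wild-type array of set 2), Acsl4 (0.38 without the null array of set 2) and Scd2 (0.14 without the null array of set 2 and 0.00 without the wild-type array of set 1). Depth is not defined for arrays: 16 of the 55 member probe sets read within the unspecific level throughout and could show no difference.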

Other observations

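Genes of milk fat and milk protein, which lipid-making mammary epithelium expresses, were counted beside the fat storage genes. Of 9 tested, 1 rose and 3 fell, where 5.18% of all genes tested rose and 3.59% fell. The median log2 ratio was -0.22. Wap, the whey acidic protein, fell most, by 1.10 (adjusted p = 3.12e-04), at 2556 and 2518 in the null pools and 6838 and 4433 in the wild-type pools. Lalba, which encodes alpha-lactalbumin of lactose synthesis, went the other way and rose by 0.45 (adjusted p = 0.00661), at 62482 and 129061 in the null pools and 42860 and 101093 in the wild-type pools, where set 2 read higher in both genotypes. With no set term its ratio was -0.075 without the null array of set 2 and -0.17 without the wild-type array of set 1. Btn1a1, the butyrophilin of the milk fat globule membrane, read 5299 and 6063 in the null pools, against 7649 and 9787 in the wild-type pools, and fell by 0.61 (limma adjusted p = 0.00196). Xdh, which joins butyrophilin on that membrane, read 13626 and 11311 in the null pools and 14937 and 13566 in the wild-type pools (log2 -0.20 ± 0.09, adjusted p = 0.227). Plin2, which coats milk fat droplets, read 27302 and 26559 in the null pools, against 32991 and 34964 in the wild-type pools. For Wap, Btn1a1 and Plin2 the groups did not overlap, and for Xdh and Lalba they did, across the sets. The list's summed intensity was 331352 and 486792 in the null pools and 360643 and 429463 in the wild-type pools, and it overlapped between the genotypes.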
